A study of Rattus norvegicus with 36 samples.

Results

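The genes described here are 10 components of the circadian clock, measured in rat liver after dosing with the flame retardant PBDE47. They are Npas2, Clock, Per1, Per2, Per3, Cry1, Cry2, Nr1d1, Nr1d2 and Dbp, chosen by gene symbol from the platform annotation. That annotation assigned 18 of the 31042 probe sets tested to these 10 genes, out of 14217 genes named on the array. A probe set is a group of short array probes that report a single transcript.

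PBDE47 is 2,2',4,4'-tetrabromodiphenyl ether, a brominated flame retardant. Male Harlan Sprague Dawley rats, 7 weeks old at the start, received it in corn oil by gavage on 5 consecutive days. Each of 6 groups held 6 animals. One group received corn oil alone (vehicle), and the doses of the other 5 were 0.0485 mg/kg, 0.485 mg/kg, then 4.85 mg/kg, then 48.5 mg/kg and, as the highest, 485 mg/kg. Livers were taken 1 day after the last dose, and RNA of the left lobe of each animal was hybridised to its own Affymetrix expression array. All groups shared the corn oil, the diet and the strain. The sources used here give no clock hour of necropsy for an animal, so no value was set against time of day.

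The circadian clock is a transcriptional feedback loop that runs in nearly every cell, the hepatocyte included. CLOCK or its paralogue NPAS2 pairs with BMAL1 and activates genes through E-box sequences, among them the Per and Cry genes, whose proteins return to repress the pair. REV-ERB alpha and beta, encoded by Nr1d1 and Nr1d2, form a further loop by repressing Bmal1, and the output factor DBP drives rhythmic genes of liver metabolism through D-box sequences.

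Values are log2 RMA values, in which a difference of 1 is a change of 2-fold, and a level is never compared between probe sets. Arrays have no sequencing depth, so precision rests on the number of animals. Array medians ran from 5.31 to 5.38, and arrays of a group correlated across probe sets at 0.990 to 0.997. The array of 4.85 mg/kg replicate 6 stood slightly apart, with a median correlation of 0.991 with its own group, and counts without it are given with the results they change. Of the 18 probe sets, 14 had a mean above the lowest array median of 5.31. The 4 below it were both probe sets of Per3 and 2 of the 4 of Clock, where a fold change is not exact because no detection call was made. Where a gene had several probe sets, the brightest over all animals stands for the gene. In whole liver RNA, fewer cells of a type and less RNA per cell cannot be told apart.

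The clearest feature of these genes was how far animals of the same group lay apart. Dbp, the D-box binding output factor, had a within-group SD of 0.77 (36 animals in 6 groups), above that of 99.8% of all probe sets. Npas2, the CLOCK paralogue, had a within-group SD of 0.65, above 99.6% of probe sets. The median SD over all probe sets was 0.14. Spread on this scale was not shared by the whole set. Per1 and Nr1d1, with 1 probe set each, had SDs of 0.19 and 0.20, above 81.7% and 86.9% of probe sets. The probe sets of Per2 differed. Its brightest had an SD of 0.12, above 23.5% of probe sets, and 1368303_at had 0.59, above 99.5%.

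**Figure D1:**
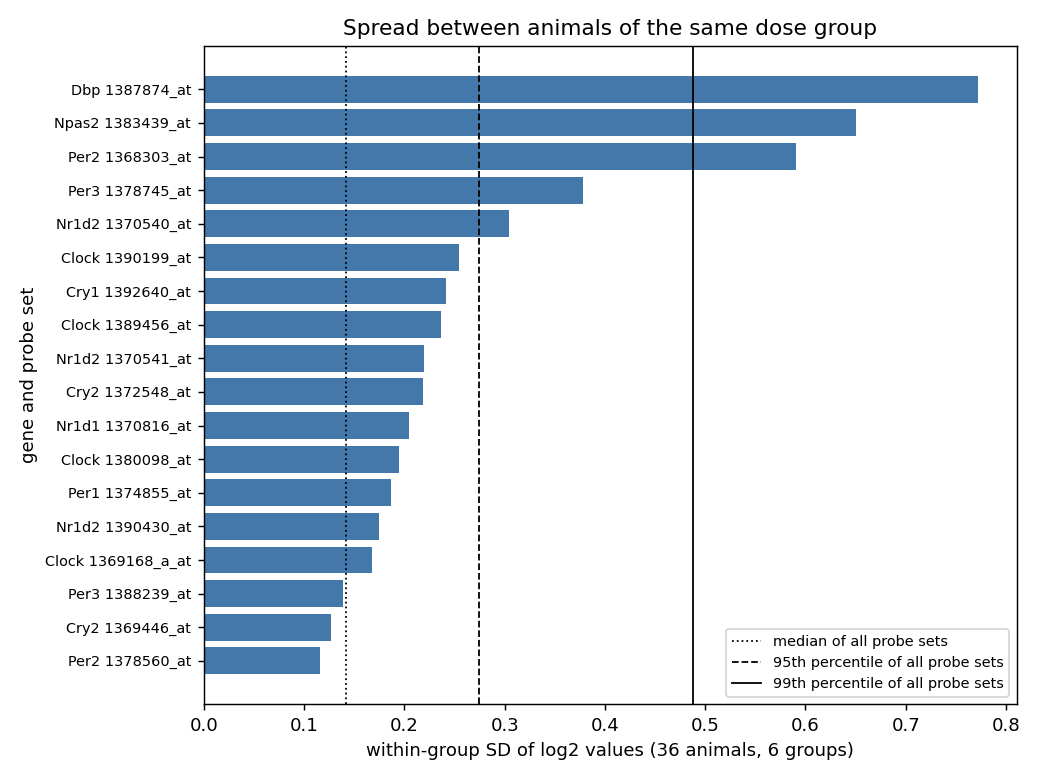
Within-group SD of the log2 value (x axis) for each of the 18 probe sets of the 10 clock genes (y axis), with vertical lines at the median, 95th and 99th percentile of all 31042 probe sets. Dbp, Npas2 and the Per2 probe set 1368303_at lie beyond the 99th percentile of 0.487, and the other Per2 probe set lies below the median.

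Dbp ranged from 7.32 to 9.99 over the 36 animals, a span of 6.39-fold. The group given 0.0485 mg/kg covered nearly all of this range by itself. In that group, replicates 1, 3 and 6 stood at 9.99, 9.59 and 9.61, and replicates 2, 4 and 5 at 7.32, 7.98 and 7.71, so that the group split into 3 high and 3 low animals with none between. Vehicle animals were spread almost as widely, with Dbp at 7.49 at the lowest, 8.68 at the median and 9.93 at the highest.

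Npas2 ranged from 3.89 to 7.30, a span of 10.7-fold. The low end lay below the lowest array median of 5.31, so this span is not exact. The same 3 animals at 0.0485 mg/kg that were high in Dbp were low in Npas2, at 5.46, 6.01 and 5.48, against 7.20, 6.94 and 6.68 in replicates 2, 4 and 5. The lowest value of all 36 animals, 3.89, was that of 485 mg/kg replicate 2.

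At 485 mg/kg, 2 of the 10 genes were lower than in vehicle livers and none was higher. These were Npas2 and Nr1d1. In the same comparison 15.0% of all probe sets passed the test, 7.22% of them lower and 7.81% higher, and 20.9% of named genes, so the count of clock genes is near the background. The test was limma's linear model over all 36 arrays, with Benjamini-Hochberg adjustment over 31042 probe sets and calls at an adjusted p below 0.05. The median log2 change of the 10 genes was 0.0037, against -0.012 over all probe sets. At an unadjusted p below 0.05, 4 of the 10 genes passed. The share of all probe sets below that unadjusted p was not counted, here or in later comparisons. Counts by unadjusted p thus have no background beside them.

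Npas2, whose protein can replace CLOCK as the partner of BMAL1, stood at 3.89, 5.59 and 6.48 (lowest, median and highest) at 485 mg/kg and at 5.56, 6.65 and 7.01 in vehicle livers. All 6 treated animals lay below the vehicle median, and the groups overlapped. Replicates 2 and 3 at 485 mg/kg, at 3.89 and 4.82, lay below the lowest array median of 5.31, where a fold change is not exact. The log2 change was -1.02 ± 0.35 (SE, n = 6 animals per group), 2.02-fold lower, with a limma adjusted p of 0.0422. Of 23 alternative settings, 12 kept this call, and without 485 mg/kg replicate 2 the change was -0.71 with an adjusted p of 0.167. The call was also lost without 485 mg/kg replicate 3 or 5 and without vehicle replicate 1, 2, 3 or 5.

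Nr1d1, which encodes the repressor REV-ERB alpha, stood at 7.07, 7.20 and 7.28 at 485 mg/kg and at 7.08, 7.67 and 7.84 in vehicle livers. The SD was 0.083 at 485 mg/kg and 0.27 in vehicle livers, or 0.11 in vehicle livers without replicate 6, the lowest of them. In all, 5 of the 6 vehicle animals lay above all of them. The log2 change was -0.41 ± 0.11 (SE, n = 6 per group), 1.33-fold lower, with a limma adjusted p of 0.0102. This call passed in 22 of 23 alternative settings. The exception was a test against a minimum change of 1.2-fold.

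The paralogue Nr1d2, encoding REV-ERB beta, did not pass. Its levels were 9.30, 9.49 and 9.60 at 485 mg/kg and 9.42, 9.67 and 10.04 in vehicle livers, and all 6 treated animals lay below the vehicle median. The log2 change was -0.21 ± 0.098 with a limma adjusted p of 0.165. Its other probe sets gave -0.11 and -0.26, with adjusted p of 0.658 and 0.339.

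None of the repressor genes of the Per and Cry families passed at 485 mg/kg. Per3, a PERIOD paralogue, had 4.37, 4.60 and 5.83 at 485 mg/kg and 3.98, 4.23 and 4.84 in vehicle livers, with all 6 treated animals above the vehicle median. Its log2 change was 0.49 ± 0.20 with a limma adjusted p of 0.107. The dimmer Per3 probe set, 1388239_at, changed by 0.18 ± 0.080 (limma adjusted p = 0.129). The mean of its 2 probe sets gave 0.34 with an adjusted p of 0.0266, but both lie below the lowest array median.

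Cry2, a CRYPTOCHROME repressor, had 7.21, 7.29 and 7.49 at 485 mg/kg and 6.85, 7.14 and 7.30 in vehicle livers, and all 6 treated animals again lay above the vehicle median. The log2 change was 0.22 ± 0.12 with a limma adjusted p of 0.257. This was the brighter Cry2 probe set, 1372548_at. The other, 1369446_at, changed by -0.017 ± 0.074 (limma adjusted p = 0.929), with 4 of 6 treated animals below the vehicle median, and the mean of both gave 0.10. Per1, Per2 and Cry1 had log2 changes of 0.037, 0.074 and -0.030. Their 95% intervals were -0.17 to 0.25, -0.065 to 0.21 and -0.30 to 0.24.

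For Per2, a PERIOD repressor gene, the 2 probe sets behaved unlike each other. The probe set 1378560_at, the brighter one, had a within-group SD of 0.12, and 1368303_at had 0.59. The 1368303_at values spanned 5.93 to 8.81 over all animals, and its change at 485 mg/kg was 0.61 ± 0.32 with a limma adjusted p of 0.223. The correlation of the pair over 36 animals, as deviations from group means, was 0.42.

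Dbp had 8.52, 9.22 and 9.99 at 485 mg/kg and 7.49, 8.68 and 9.93 in vehicle livers, with 4 of 6 treated animals above the vehicle median. Its change of 0.51 ± 0.41 did not pass (limma adjusted p = 0.486), and the 95% interval ran from -0.32 to 1.35. Clock, which encodes a partner of BMAL1, changed by -0.054, with a 95% interval of -0.34 to 0.23. Its other probe sets 1389456_at, 1380098_at and 1369168_a_at gave -0.22, -0.017 and 0.077, with limma adjusted p of 0.296, 0.952 and 0.683.

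**Figure D2:**
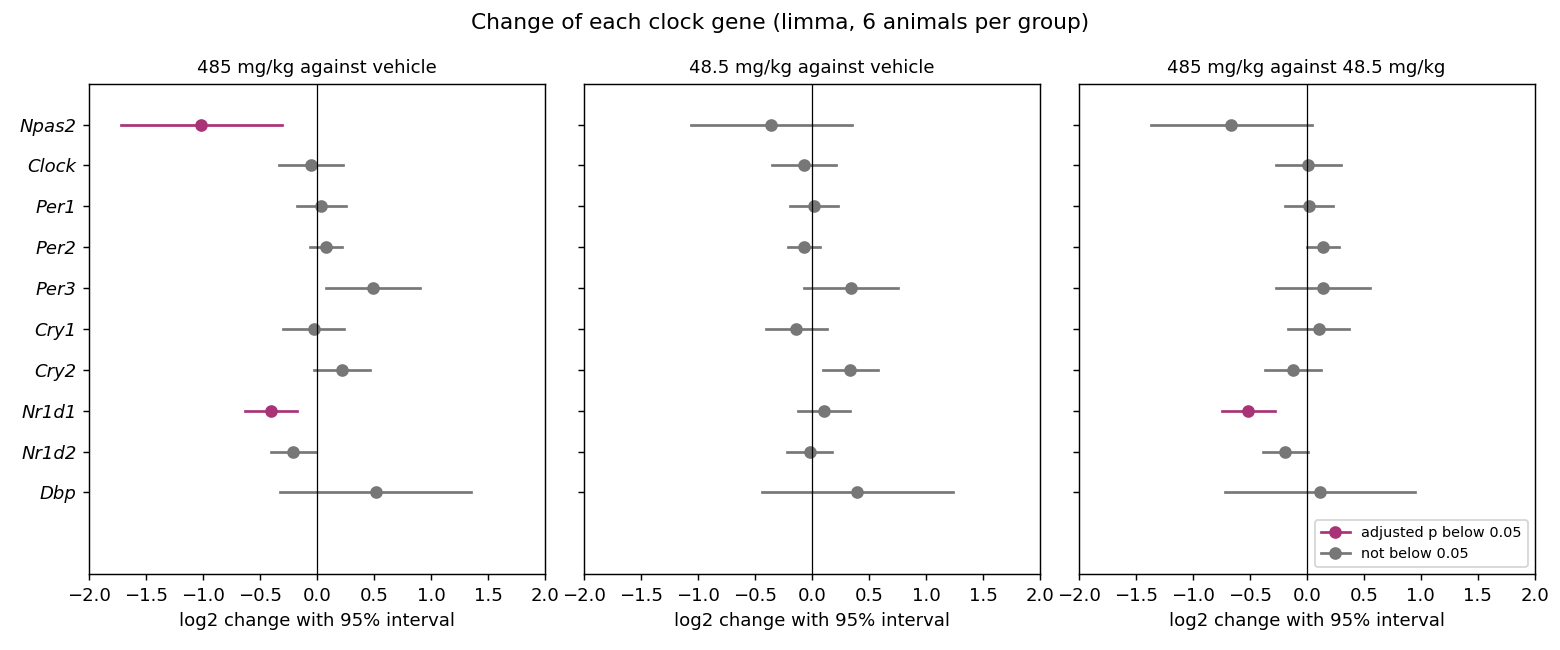
Log2 change (x axis, point) with its 95% interval (line) from limma for the 10 clock genes (y axis), at 485 mg/kg against vehicle, 48.5 mg/kg against vehicle and 485 mg/kg against 48.5 mg/kg, 6 animals per group. Npas2 (-1.02) and Nr1d1 (-0.41) passed against vehicle, and Nr1d1 (-0.51) passed between the highest doses.

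At 48.5 mg/kg, 0 of the 10 genes passed by limma, where 3.39% of all probe sets and 5.11% of named genes did, and 1 passed at an unadjusted p below 0.05. That gene was Cry2, with 6.98, 7.57 and 7.70 at 48.5 mg/kg against 6.85, 7.14 and 7.30 in vehicle livers. Its log2 change was 0.34 ± 0.12 with a limma adjusted p of 0.126. Without 48.5 mg/kg replicate 4, the lowest animal, the change was 0.43 with an adjusted p of 0.0300. The probe set 1369446_at did not show the difference, with a change of -0.051 ± 0.074 (limma adjusted p = 0.809), and the mean of both Cry2 probe sets gave 0.14 with an adjusted p of 0.433.

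At 4.85 mg/kg, 0 of the 10 genes passed, with 0.0193% of all probe sets called, and Cry2 alone had an unadjusted p below 0.05. Cry2 stood at 7.28, 7.45 and 7.76 at 4.85 mg/kg, and its change from vehicle was 0.38 ± 0.12 with a limma adjusted p of 0.510. By 1369446_at the change was 0.0071 ± 0.074 (limma adjusted p = 0.995), and by the mean of both it was 0.19. Npas2 at this dose was at its highest group mean, 6.87 ± 0.41 (SD, n = 6), against 6.45 ± 0.54 in vehicle livers, a change of 0.42 ± 0.35 with an adjusted p of 0.911. At 0.485 and 0.0485 mg/kg, 0 of the 10 genes passed, 0% of probe sets were called, and 0 of the 10 had an unadjusted p below 0.05.

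Between the highest doses, 485 against 48.5 mg/kg, 1 of the 10 genes passed, and 4.86% of all probe sets and 7.22% of named genes did. It was Nr1d1, with 7.07, 7.20 and 7.28 at 485 mg/kg and 7.60, 7.65 and 7.86 at 48.5 mg/kg. The groups did not overlap, as held for 2.57% of all probe sets. The log2 change was -0.51 ± 0.11 with a limma adjusted p of 0.00385, and it passed in 22 of 22 alternative settings. The test against a minimum change of 1.2-fold was not among the settings for this comparison. Nr1d2 at 485 mg/kg also lay below the 48.5 mg/kg median in 6 of 6 animals, with a change of -0.19 ± 0.098 and an adjusted p of 0.349. For Npas2 the change was -0.66 ± 0.35 with an adjusted p of 0.360, so its levels at the highest doses were not separated by this test.

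Across the whole dose series, Nr1d1 had group means of 7.60 in vehicle livers, then 7.66, 7.51, 7.63 and 7.70 from 0.0485 to 48.5 mg/kg, and 7.19 at 485 mg/kg. The first 5 of these spanned 7.51 to 7.70, and the mean at 485 mg/kg was the lowest. Npas2 had means of 6.45 in vehicle livers, then 6.30, 6.21, 6.87, 6.10 and 5.44 from 0.0485 to 485 mg/kg. A moderated F test of any difference among the 6 groups passed for 1 of the 10 genes, Nr1d1 (adjusted p = 0.00991), for 13.0% of all probe sets and for 18.3% of named genes. Npas2 had an adjusted p of 0.0630 in this limma test, and 0.0396 without 4.85 mg/kg replicate 6.

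**Figure D3:**
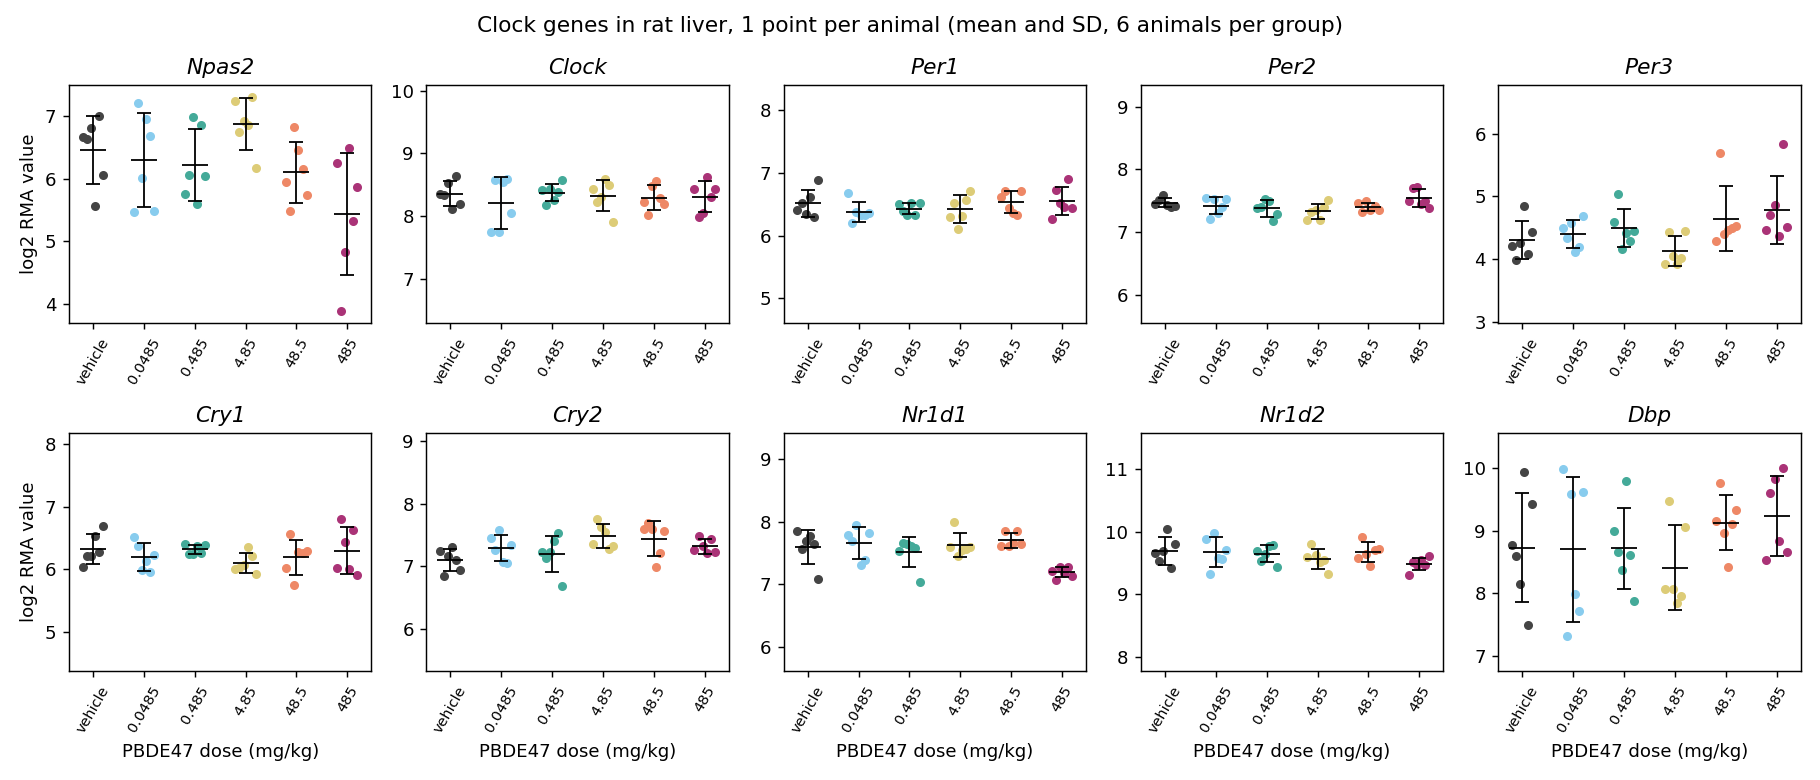
Log2 RMA value of each animal (points, y axis) by PBDE47 dose (x axis, vehicle and 0.0485 to 485 mg/kg) for the 10 clock genes, with the mean and SD of 6 animals. Each panel shows the brightest probe set and spans the same number of log2 units. The spread of Dbp and Npas2 can so be set beside that of the other genes, and Nr1d1 at 485 mg/kg sits between 7.07 and 7.28.

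The differences between animals were not independent from gene to gene. For each pair of the 10 genes, deviations from the dose group means were correlated over 36 animals, and the p came from 100000 permutations of animals within dose groups, adjusted over the 45 pairs. Of these, 25 pairs passed by Pearson's r, 13 of them positive and 12 negative. By Spearman's rho 25 passed as well, and 23 of them passed by both. The smallest p that these permutations can give is 1e-05. The share of pairs of other genes that would pass was not counted. As background, the absolute r of Dbp with all other probe sets was 0.14 at the median and 0.42 at the 95th percentile. For Npas2 these were 0.15 and 0.46.

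The signs set Npas2 and Clock apart from the other 8 genes. Npas2 and Clock, the activators, were positively correlated with each other, with r of 0.80, rho of 0.82 and an adjusted p of 0.00015 for each by permutation. All 16 pairs of an activator with one of the other 8 genes were negative, from -0.86 to -0.11, and 12 of them passed. The weakest, Npas2 with Nr1d1 (permutation adjusted p = 0.567), was negative in 3 of 6 groups. Of the 28 pairs among the other 8 genes, 26 were positive and 12 passed.

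The strongest pair was Clock with Dbp, with r of -0.86 and rho of -0.88 (permutation adjusted p = 0.00015 for each). The r was -0.83 without the 2 animals farthest from the median, and it was negative in all 6 dose groups, from -0.99 to -0.65. Npas2 with Dbp had r of -0.76 and rho of -0.79 (permutation adjusted p = 0.00015 for each), r of -0.82 without the 2 farthest animals, and was negative in 6 of 6 groups. In vehicle livers alone the 6 animals gave -0.95.

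Dbp was positively correlated with Nr1d2 (r = 0.71), Per1 (r = 0.67), Per3 (r = 0.59) and Cry2 (r = 0.54), each with the same sign in 6 of 6 groups. The permutation adjusted p of these pairs were 0.000375, 0.000225, 0.000375 and 0.00349. By rho the 4 pairs, in the same order, gave 0.65, 0.69, 0.63 and 0.59, with permutation adjusted p of 0.00135, 0.00015, 0.00045 and 0.0027. Per2 gave r of 0.48 and rho of 0.47 with Dbp by its brighter probe set (permutation adjusted p = 0.0188 and 0.0225), with a positive sign in 4 of 6 groups. By 1368303_at it gave 0.87, as a description without a test. The other probe sets differed in how they followed Dbp, again without a test. For Per3, 1388239_at gave r of 0.081 with Dbp and -0.13 with the Per3 probe set used, so the Per3 correlations rest on the brighter of 2 dim probe sets. For Cry2, 1369446_at gave 0.37, and for Nr1d2 the others gave 0.67 and 0.41. For Clock, 1389456_at gave -0.84, and the dim 1380098_at and 1369168_a_at gave -0.55 and -0.11.

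Nr1d1 had the fewest passing pairs by r, 2 of 9. These were Cry2 (r = 0.58, permutation adjusted p = 0.00349) and Per3 (r = 0.34, permutation adjusted p = 0.0378), with rho of 0.47 and 0.45 (permutation adjusted p = 0.0171 and 0.0159). With Dbp the r was 0.42 and missed the threshold (permutation adjusted p = 0.0623), while the rho of 0.50 passed (permutation adjusted p = 0.0156). The r was 0.56 without the 2 farthest animals. With Clock the r of -0.38 also missed (permutation adjusted p = 0.0705), and the rho of -0.43 passed (permutation adjusted p = 0.0359).

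The count of pairs passing by r was 28 without 4.85 mg/kg replicate 6, and 15 in the 24 animals of vehicle and the 3 lowest doses. All 15 of the last had also passed, with the same sign, over 36 animals.

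**Figure D4:**
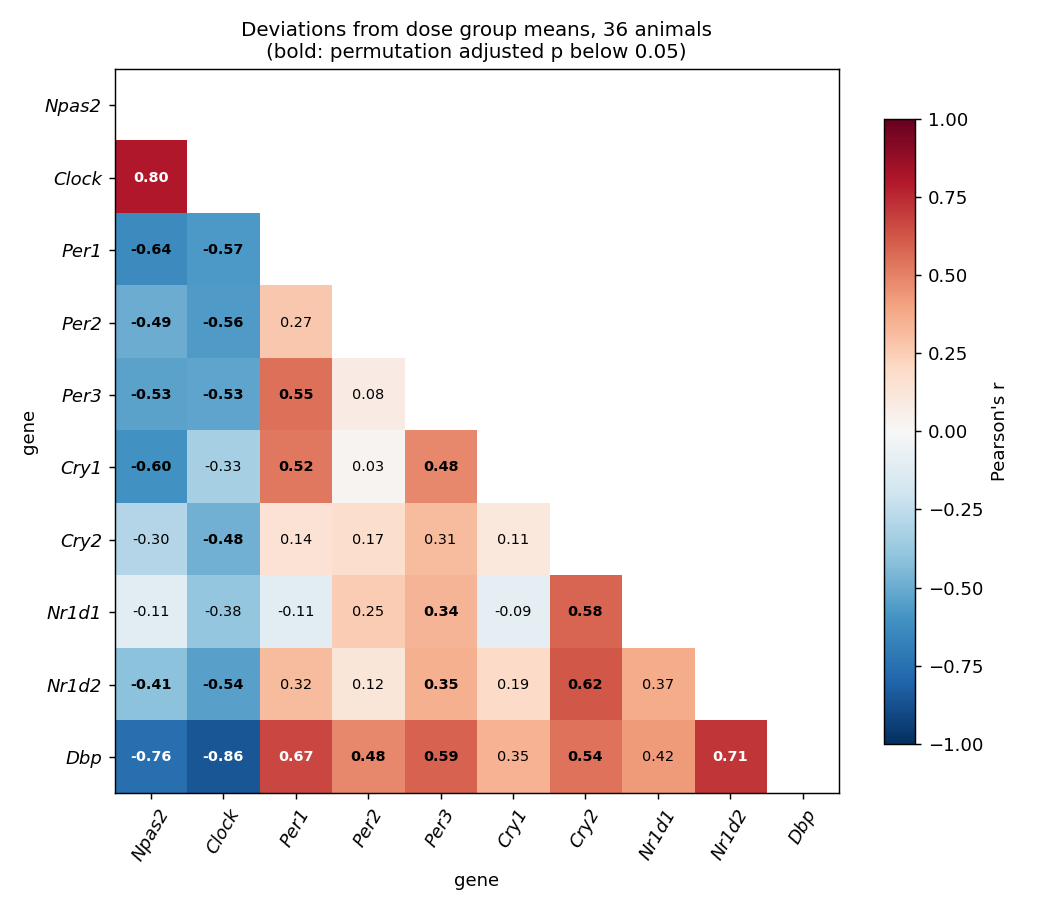
Pearson's r of the deviations from dose group means for each of the 45 pairs of the 10 clock genes (rows and columns are genes, colour and number give r), over 36 animals. Bold numbers mark the 25 pairs that passed. The Npas2 and Clock columns are negative with every other gene except each other, and the rest is mostly positive.

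The promoters of 3 genes are shown because they hold the sequence elements through which the loop is known to run. The 250 bases before the start site are given in the direction of the gene (RefSeq, GRCr8 assembly), with motif matches in capitals. Nr1d1 has 2 listed start sites and the inner one is shown. Per2 lies on chr9:99496994-99497243 (minus strand), Nr1d1 on chr10:84229455-84229704 (minus strand) and Bmal1, which is not among the 10 genes, on chr1:176766078-176766327 (plus strand).
Per2: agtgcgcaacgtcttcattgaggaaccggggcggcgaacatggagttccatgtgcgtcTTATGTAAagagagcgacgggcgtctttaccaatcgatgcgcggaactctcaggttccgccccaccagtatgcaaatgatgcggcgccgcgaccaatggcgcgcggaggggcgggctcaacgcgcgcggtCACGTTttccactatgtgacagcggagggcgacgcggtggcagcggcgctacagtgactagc
Nr1d1: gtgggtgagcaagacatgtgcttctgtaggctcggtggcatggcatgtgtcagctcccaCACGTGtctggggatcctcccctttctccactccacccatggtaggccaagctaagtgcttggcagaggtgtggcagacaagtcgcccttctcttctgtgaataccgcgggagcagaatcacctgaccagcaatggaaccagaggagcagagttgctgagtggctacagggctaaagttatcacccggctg
Bmal1: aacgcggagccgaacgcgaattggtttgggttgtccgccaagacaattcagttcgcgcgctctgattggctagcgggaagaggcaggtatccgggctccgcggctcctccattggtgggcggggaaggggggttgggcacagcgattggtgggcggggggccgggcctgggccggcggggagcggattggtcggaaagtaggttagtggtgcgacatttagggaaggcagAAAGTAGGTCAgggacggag

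In Per2 the capitals mark a D-box, TTATGTAA, that begins 192 bases before the start site, and a noncanonical E-box, CACGTT, 62 bases before it. In Nr1d1 they mark the canonical E-box, CACGTG, 191 bases before the inner start site. In Bmal1 they mark a RORE, the element bound by REV-ERB and ROR proteins, AAAGTAGGTCA, 20 bases before the start site. Searches covered both strands of 300 bases, 250 before to 50 after each start, for the canonical E-box CACGTG, the noncanonical form CACGTT, the D-box TTATGNAA and, by its consensus, the RORE. The E-box forms differ in their last base, so that no 6 bases match both.

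Of the 10 genes, 9 had a promoter entry, and the tenth is Cry1. The canonical E-box was found in 1 of the 9 (Nr1d1), CACGTT in 3 (Per2, Cry2 and Nr1d1 at its outer start), the D-box in 1 (Per2) and the RORE in 0. Over 33469 promoters of the same length, 6.42% held the canonical E-box, 4.83% CACGTT, 3.66% the D-box and 0.356% the RORE. A gene counted if any of its entries held the motif, while the percentages count single promoter entries. The Per1 entry, chr10:54304126-54304425, lies inside the gene, which spans 54299002 to 54313804. The same holds for Npas2 (entry chr9:48959315-48959614, gene 48959225 to 49138036) and Per3 (entry chr5:166777751-166778050, gene 166740914 to 166778243). The bases before the outer ends of Per1, Npas2 and Per3 were therefore not searched. The annotated Per2 gene reaches 99497069, so its CACGTT also lies inside the gene. A match describes these letters and no binding was measured.

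Bmal1, the partner of CLOCK and NPAS2, was the gene whose pattern was most opposed to that of Dbp. Its r with Dbp was -0.94 over 36 animals, the lowest of 9603 genes whose representative probe set was brighter than the median. No other probe set of the array had a larger absolute r with Dbp, and the median absolute r over 31041 probe sets was 0.14, with 2.17% at 0.5 or more. Bmal1 was itself spread widely, with a within-group SD of 0.65. It stood at 5.12, 5.42 and 6.10 at 485 mg/kg and at 5.04, 6.12 and 6.94 in vehicle livers, a change of -0.49 ± 0.35 with a limma adjusted p of 0.417.

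The genes most like Dbp were Usp2 (r = 0.90), Nat8 (0.90), Tef (0.89), Hsd17b2 (0.89), Hlf (0.88), Tom1l1 (0.85), Slc25a10 (0.84) and LOC100909928 (0.82). Tef and Hlf encode the other PAR bZIP factors, relatives of DBP that bind the same D-box, and Usp2 encodes a deubiquitinase known as rhythmic in mouse liver. After Bmal1, the genes most opposed to Dbp were Dipk2a (-0.91), Sphk2 (-0.89), Clpx (-0.88), Clock (-0.86), Dapk1 (-0.85), Tubb2a (-0.85) and Slc6a6 (-0.84). Clock was the only one of the 10 clock genes among these 16.

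For Npas2 the most similar were Asap2 (r = 0.90), Slc6a6 (0.90), Litaf (0.90), Clpx (0.89), Sphk2 (0.85), Gckr (0.83), Wdr91 (0.81) and Cldn1 (0.81). Gckr encodes the regulatory protein of glucokinase. The most opposed were Por (-0.88), Nat8 (-0.86), Hprt1 (-0.84), Srsf4 (-0.82), Ptp4a1 (-0.82), Ifrd2 (-0.82), Arhgef26 (-0.81) and Sptssa (-0.81). Por encodes the electron donor of the cytochromes P450. Slc6a6, Clpx and Sphk2 appear both among the genes like Npas2 and among those opposed to Dbp.

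**Figure D5:**
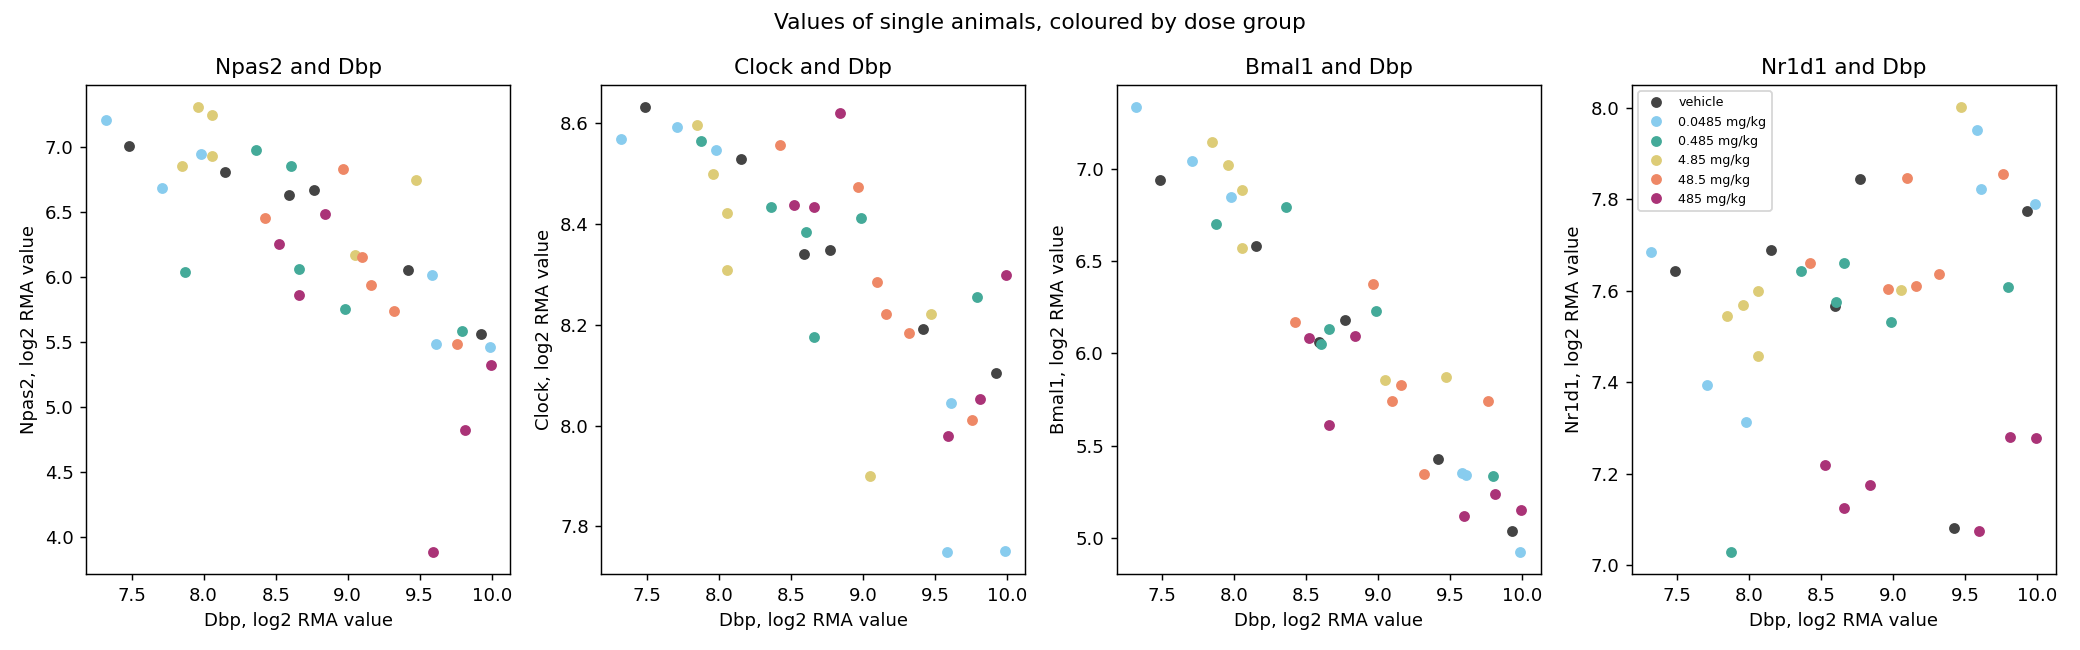
Log2 RMA value of Npas2, Clock, Bmal1 and Nr1d1 (y axes) against that of Dbp (x axes), 1 point per animal, coloured by dose group, 36 animals. Npas2, Clock and Bmal1 are lower in animals where Dbp is higher, while the 485 mg/kg points of Nr1d1 lie between 7.07 and 7.28, over Dbp values of 8.52 to 9.99.

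Of 18 other genes of the clock loops, 14 were measured. At 485 mg/kg, 7 of the 14 had an unadjusted limma p below 0.05, for which no share of all probe sets was counted. After adjustment 0 were higher and 1 was lower, against 15.0% of all probe sets and 20.9% of named genes called. It was Bmal2, a paralogue of Bmal1, at 4.82, 5.02 and 5.16 at 485 mg/kg and 5.08, 5.16 and 5.56 in vehicle livers, a change of -0.22 ± 0.074 with a limma adjusted p of 0.0417. Both group means lay below the lowest array median. Hlf had 8.35, 8.90 and 9.16 at 485 mg/kg and 7.63, 8.29 and 8.83 in vehicle livers, and its change of 0.58 ± 0.21 just missed the threshold (limma adjusted p = 0.05005). At each of the other doses 0 of the 14 passed. An unadjusted limma p below 0.05 was found for 2 of them at 48.5 mg/kg and 1 at 0.485 mg/kg.

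Of 12 liver genes known as rhythmic in mouse liver, 11 were measured, and 2 were higher at 485 mg/kg and 0 lower, near the 20.9% of named genes called in this comparison. They were Alas1, the first enzyme of heme synthesis, with 11.72, 12.66 and 13.20 at 485 mg/kg and 10.28, 10.56 and 11.10 in vehicle livers, and Por, with 10.85, 11.17 and 11.93 at 485 mg/kg and 8.89, 9.14 and 10.11 in vehicle livers. Neither pair of groups overlapped, as held for 7.33% of all probe sets. The changes were 2.01 ± 0.18 for Alas1 (adjusted p = 1.06e-10) and 1.94 ± 0.24 for Por (adjusted p = 1.41e-07) by limma. Both are also known as genes of drug metabolism. At 48.5 mg/kg 2 of the 11 were higher and 0 lower, where 5.11% of named genes were called. Usp2, the gene most like Dbp, changed by 0.59 ± 0.48 with an adjusted p of 0.485.

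Genes known to respond to glucocorticoids, which can set the liver clock, were lower at 485 mg/kg in 2 of 9 measured and higher in 0, near the share of 20.9% of named genes. Sgk1 had 8.36, 8.71 and 9.14 at 485 mg/kg and 10.39, 10.69 and 11.12 in vehicle livers, a change of -1.97 ± 0.29 (limma adjusted p = 4.15e-06), and Klf9 changed by -0.63 ± 0.16 (limma adjusted p = 0.00530). Of 5 fasting genes measured, 3 were lower (Pck1, Igfbp1 and Cpt1a), and of 6 feeding genes 2 were higher (Acaca and Elovl6) and 1 lower (Srebf1), beside the same 20.9%. At 48.5 mg/kg, with 5.11% of named genes called, 1 glucocorticoid gene was lower, 0 fasting genes passed by limma or at an unadjusted p below 0.05, and 1 feeding gene was higher and 1 lower. The part of these changes in the levels of Npas2 and Nr1d1 was not tested.

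Markers of cell types were counted at 485 mg/kg beside the 20.9% of named genes, and 15.0% of probe sets, called there. Of 7 hepatocyte markers, 5 were lower, with a list mean of 14.13 to 14.20 per animal at 485 mg/kg and 14.31 to 14.36 in vehicle livers, far above the array medians. Of 6 Kupffer cell markers, 3 were lower and 1 higher, with list means of 8.00 to 8.62 at 485 mg/kg and 8.46 to 8.71 in vehicle livers. Of 5 sinusoidal endothelial markers, 2 were lower, with list means of 7.93 to 8.11 at 485 mg/kg and 8.12 to 8.45 in vehicle livers. Of 4 erythroid markers, 3 were lower, with list means of 6.68 to 7.04 at 485 mg/kg and 7.30 to 7.69 in vehicle livers. Of 7 stellate and fibroblast markers 0 passed by limma, and 1 had an unadjusted p below 0.05. Of 4 cholangiocyte markers 1 was higher and of 7 T and NK cell markers 2 were lower, shares near that of all named genes. Of 2 B cell markers 0 passed, with 1 at an unadjusted p below 0.05. No marker is at 0 on this scale, and the part of these differences in the clock genes was not tested.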

How the data were processed

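The authors deposited log2 values for every probe set on each array. Per the submitters' processing notes they came from RMA, through affy. RMA corrects background, normalizes quantiles between arrays and summarizes probes, so a value is relative to the other arrays. Replicates are separate animals. Of 31099 probe sets, 57 controls were left out. Gene names came from the platform annotation, updated through the RefSeq gene table of GRCr8, and 20826 probe sets had 1 gene, 436 several and 9780 none.

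A one-way model over 36 arrays was fitted with limma 3.58.1 (lmFit and eBayes, R 4.3.3), two-sided, with 30 residual and 5.26 prior degrees of freedom. The study named R/maanova at a false discovery rate of 5%, which was not used here, and an ordinary test of the same model stood in as an alternative. Other alternatives were quantile normalization, median centring, a replicate block by number, a filter on dim probe sets, trended and robust moderation, array weights, only the 12 arrays compared, averaging over probe sets of a gene, testing for at least a 1.2-fold change, and leaving out each array in turn. Correlations used Python 3.11.15 with numpy 2.4.6.

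All 10 members were named, with the changes of every probe set at 485 mg/kg against vehicle. From each further list, called genes with the largest change were named, and for Dbp and Npas2 the 8 genes with the highest and the 8 with the lowest r. Bmal1, Hlf and Usp2 were also given values because results turn on them, chosen after their values were seen. The members and lists were chosen with earlier results of these data known.

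On simulated data for 485 mg/kg against vehicle, with 31042 probe sets, 84% of 50 probe sets changed by 0.5 were called and 22% of 50 changed by 0.25. The 160 calls included 7 unchanged probe sets. The real comparison had 4665 calls, so the adjustment was stricter in the simulation, and its shares may be too low for 485 mg/kg. The changed probe sets were drawn at random from all of them, whose median within-group SD was 0.14. These shares do not carry over to widely spread genes such as Dbp (SD 0.77) and Npas2 (SD 0.65).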

Additional observations from a re-analysis of the deposited data

Results flagged for a closer look

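In each group of 6 animals, the highest or lowest value was checked for a gap to its neighbour of more than 0.625 of the group's range. Of 108 groups and probe sets, 9 had such a value, and chance gives about 1 in 20.

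Nr1d1 had 3 of them. At 4.85 mg/kg, replicate 2 was highest at 8.00, with the next animal at 7.60. At 0.485 mg/kg, replicate 6 was lowest at 7.03, with the next at 7.53. In vehicle livers, replicate 6 was lowest at 7.08, with the next at 7.57, and this animal is the one that made the vehicle and 485 mg/kg groups overlap. Per1 at 0.0485 mg/kg was highest in replicate 1, at 6.68 against 6.37 for the next.

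The brighter Per3 probe set was highest at 485 mg/kg in replicate 5, at 5.83 against 4.86, and at 48.5 mg/kg in replicate 2, at 5.68 against 4.52. The dimmer Per3 probe set was lowest at 0.0485 mg/kg in replicate 3, at 3.88 against 4.05. The dim Clock probe set 1380098_at was lowest at 485 mg/kg in replicate 2, at 4.58 against 4.97, and at 4.85 mg/kg in replicate 6, at 4.57 against 4.99. The last of these is the array that stood apart in its group.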

How the results depend on the processing

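Of 1354 values of single genes under the alternatives, 1339 kept their side of the threshold, 12 no longer passed and 3 newly passed. No called value changed sign, and 80 uncalled ones did, the largest of them 0.16 as reported. At 485 mg/kg against vehicle, the count of 2 genes became 1 with the ordinary test, with trended and robust moderation and with only the 12 arrays compared. Npas2 was the gene lost in these (adjusted p = 0.0672, 0.0656 and 0.0943). The count was 0 with a minimum change of 1.2-fold, 3 with the mean of probe sets, and 1 to 3 when arrays were left out. Per3 was gained with the mean of probe sets (limma adjusted p = 0.0266) and without vehicle replicate 4 (limma adjusted p = 0.0476). Over all alternatives the adjusted p of Npas2 ran from 0.0137 to 0.449. At 48.5 mg/kg the count of 0 became 1 without 48.5 mg/kg replicate 4 and ran from 0 to 1. For any difference among the 6 groups, the count of 1 became 2 with the filter on dim probe sets, with array weights, with the mean of probe sets and without 4.85 mg/kg replicate 6. The count over all probe sets moved by more than 1.5 times with the minimum change, from 4665 to 764 at 485 mg/kg, from 1052 to 71 at 48.5 mg/kg and from 6 to 2 at 4.85 mg/kg, and with the 12 arrays compared, from 1052 to 556 at 48.5 mg/kg, from 6 to 1 at 4.85 mg/kg and from 1509 to 880 between the highest doses. Without 48.5 mg/kg replicate 5 it was 678 at 48.5 mg/kg. The cause was not tested.

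The count of 25 correlated pairs became 15 in the 24 animals of vehicle and the 3 lowest doses. It ran from 23 to 33 under the other alternatives, and was 28 without 4.85 mg/kg replicate 6. The cause of the lower count was not tested. Replicate numbers share no stated source: the 90 pairs of same-numbered animals correlated at -0.18 to 0.23, with 19 above 0.1, and 11 of 36 arrays were closest to one of their own number. With the replicate block, 2 genes passed at 485 mg/kg, 0 at each lower dose, 1 between the highest doses and 1 for any difference, and 33 pairs passed. In the simulation, with 6 animals per group and 160 calls, most changes of 0.25 were missed. The adjustment is less strict where many probe sets are called, as at 485 mg/kg, so that share does not carry over directly. Larger changes can also be missed for widely spread genes such as Dbp.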
